A study of Homo sapiens with 18 samples.

Results

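Open chromatin at the loci of 7 genes tied to the mesenchymal state was described in 2 neuroblastoma cell lines. The genes were PRRX1, SNAI2, TWIST1, ZEB1, RUNX1, YAP1 and VIM, and a peak belonged to a locus if it lay within 50 kb of the gene body on the hg19 build. Peaks that overlapped by at least 1 bp in any of the 18 libraries were merged into regions. The 7 loci held 82 of the 150322 regions on chromosomes 1 to 22 and X. Measured at its near end, the region closest to the inside edge of a window began 48.8 kb from ZEB1 and was found in 4 libraries. The nearest one outside lay 50.3 kb from TWIST1 and was found in 1 library.

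Kelly and BE2C are established human neuroblastoma lines, described in the series title as MYCN amplified. Cells of both lines were transduced with lentivirus, so the controls carried the empty pLKO vector and the other groups carried shAhR-1 or shAhR-2, 2 distinct short hairpin RNAs against AHR. The 6 groups had 3 libraries each, prepared by ATAC-seq, a method that marks accessible DNA through the cuts of a transposase loaded with adapters. The labels do not say whether the 3 libraries of a group came from separate cultures, so spread between them may be technical. AHR RNA and protein were not measured in these libraries, and the strength of the knockdown was therefore not checked here. A peak list from a bulk population cannot tell a site open in more cells from a site more open in each cell, and a site without a peak is one that did not pass the peak caller.

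Neuroblastoma cells are known to occupy an adrenergic state, close to sympathetic neuroblasts, or a mesenchymal state that resembles neural crest precursors. The mesenchymal state expresses PRRX1, SNAI2 and VIM at high levels. SNAI2, TWIST1 and ZEB1 bind E-box sequences and are classic drivers of epithelial-mesenchymal transition. PRRX1 is a homeodomain factor, RUNX1 is the DNA-binding subunit of a core-binding factor, and YAP1 is the Hippo-pathway coactivator that acts through TEAD proteins. VIM encodes vimentin, the intermediate filament protein of mesenchymal cells. AHR is a ligand-activated transcription factor that pairs with ARNT and binds the core GCGTG.

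RefSeq promoter sequences (GRCh38.p14) matched 5 of the 7 genes with 11 entries, of which 7 belonged to ZEB1. The 250 bases before the start are shown for the 4 genes with 1 entry, to give the base composition of a promoter of each. Within GRCh38.p14 the YAP1 and VIM entries end at the gene start, while the PRRX1 and RUNX1 entries lie inside the gene and thus downstream of its most distal start. The RUNX1 sequence is therefore not that of the distal start, which had no peak, and it was not placed against the peaks inside the gene. Each is written 5′ to 3′ on the gene's strand, and capitals mark CpG dinucleotides. These coordinates belong to another build than the peaks, and the 2 builds were not aligned to each other. The entries lie at chr1:170663881-170664130 (plus strand) for PRRX1, chr21:34888700-34888949 (minus strand) for RUNX1, chr11:102110197-102110446 (plus strand) for YAP1 and chr10:17227991-17228240 (plus strand) for VIM.
PRRX1: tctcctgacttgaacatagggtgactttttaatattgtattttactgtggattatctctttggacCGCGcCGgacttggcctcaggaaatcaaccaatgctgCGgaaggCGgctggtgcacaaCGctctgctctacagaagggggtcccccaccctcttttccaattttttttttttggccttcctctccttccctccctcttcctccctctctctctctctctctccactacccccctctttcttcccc
RUNX1: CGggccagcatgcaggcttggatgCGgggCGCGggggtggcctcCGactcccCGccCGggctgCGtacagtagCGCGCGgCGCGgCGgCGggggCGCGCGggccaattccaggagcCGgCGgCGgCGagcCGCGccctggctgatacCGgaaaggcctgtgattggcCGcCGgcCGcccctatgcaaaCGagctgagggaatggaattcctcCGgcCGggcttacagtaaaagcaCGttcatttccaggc
YAP1: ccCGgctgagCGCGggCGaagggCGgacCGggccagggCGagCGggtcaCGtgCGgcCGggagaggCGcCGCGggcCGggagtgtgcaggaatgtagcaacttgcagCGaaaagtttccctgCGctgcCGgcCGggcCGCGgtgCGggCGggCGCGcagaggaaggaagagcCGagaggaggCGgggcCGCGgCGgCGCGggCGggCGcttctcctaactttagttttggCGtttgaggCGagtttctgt
VIM: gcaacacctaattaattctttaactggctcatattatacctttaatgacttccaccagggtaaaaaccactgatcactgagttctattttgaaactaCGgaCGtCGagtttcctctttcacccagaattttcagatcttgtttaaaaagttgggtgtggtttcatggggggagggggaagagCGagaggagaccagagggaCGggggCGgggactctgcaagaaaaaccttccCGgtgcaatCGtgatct

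The YAP1 and RUNX1 sequences were dense in CpG, with 36 and 32 CpG dinucleotides, a GC content of 72% and 71.2%, and an observed-to-expected CpG ratio of 1.20 and 1.02. The PRRX1 sequence held 6 CpG dinucleotides at 50.8% GC and a ratio of 0.425, and the VIM sequence held 8 at 46% GC and a ratio of 0.613. Over 35116 RefSeq promoters the GC content had quartiles of 46.4% and 68% and a median of 58%, and the CpG ratio had a median of 0.558. The ZEB1 entries ranged from 42.4% to 73.6% GC.

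Letters were searched on both strands of the same 250 bases. The AHR-ARNT core GCGTG occurred in none of the 4 printed sequences and in 2 of the 7 ZEB1 entries, with up to 3 matches in 1 entry, against 32.2% of all promoters. The E-box CANNTG was found in 61.8% of all promoters and in 4 of the 7 ZEB1 entries, and once in the YAP1 sequence, where it was the form CACGTG that overlaps it (6.34% of all promoters). The form CAGGTG was present in 2 ZEB1 entries and in 17.5% of all promoters. The TEAD letters GGAATG occurred once in the YAP1 and once in the RUNX1 sequence (11.9% of all promoters), and the RUNX letters TGTGGT once in the VIM sequence and in 2 ZEB1 entries (11.0% of all promoters). The AP-1 letters TGANTCA, held by 6.57% of all promoters, had no match in any of the 11 entries. A match describes letters and is not a bound site.

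The deposited lists differed widely in length, which bears on every count of peaks. They held 9204 to 81637 peaks, with medians of 30053 in Kelly and 44397 in BE2C. The shAhR-2 lists were the longest in both lines, 60457 to 65740 peaks in Kelly and 75798 to 81637 in BE2C. The pLKO lists held 19984 to 34848 and 34343 to 44397 peaks, and the shAhR-1 lists 9204 to 24424 and 25660 to 45023. The list of 9204 peaks, replicate 1 of Kelly shAhR-1, stood apart from the other 17, and results that rest on it are given with and without it. Read numbers per library were not analysed here, so the depth is unknown. For comparisons, only the strongest peaks of each list, ranked by −log10 p, were therefore kept, 9204 in Kelly and across the lines and 25660 within BE2C.

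The count of peaks at the 7 loci followed the length of the list. Kelly libraries had 17, 10 and 13 peaks with pLKO, 5, 12 and 13 with shAhR-1, and 30, 36 and 32 with shAhR-2. BE2C libraries had 18, 16 and 18 peaks with pLKO, 19, 13 and 12 with shAhR-1, and 39, 41 and 47 with shAhR-2. All 6 shAhR-2 libraries lay above all 12 other libraries. The means over the constructs in that order were 13.3 ± 3.51, 10.0 ± 4.36 and 32.7 ± 3.06 (SD, n = 3) in Kelly and 17.3 ± 1.15, 14.7 ± 3.79 and 42.3 ± 4.16 (SD, n = 3) in BE2C. The loci did not all share this pattern. At ZEB1 the Kelly libraries had 2, 1 and 2 peaks with pLKO and 1, 1 and 2 with shAhR-2, which overlapped, and BE2C had 2, 2 and 4 with pLKO and 4, 4 and 5 with shAhR-2, which met at 4. In Kelly the counts of pLKO and shAhR-2 also overlapped at TWIST1, with 4, 1 and 3 against 4, 7 and 5, and at RUNX1, with 1, 0 and 2 against 2, 2 and 3. At VIM the counts of pLKO and shAhR-2 overlapped in both lines, with 2, 4 and 2 against 4, 3 and 5 in Kelly and 3, 2 and 2 against 3, 4 and 5 in BE2C. Per 10000 peaks of a list, the loci held 4.05 to 5.95 with a median of 4.90, and the line medians were 4.91 in Kelly and 4.79 in BE2C. The excess with shAhR-2 was thus not visible as a share of the list in Kelly, where the group medians were 4.88 with pLKO, 5.43 with shAhR-1 and 4.87 with shAhR-2. In BE2C they were 4.38, 4.68 and 5.28. Among the strongest 9204 peaks, 3 to 5 lay at the 7 loci in every library, with means of 3.67 in Kelly and 4.44 in BE2C. Without replicate 1 of Kelly shAhR-1 the lists could be compared at 19984 peaks, where the means were 7.75 and 9.44.

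**Figure D1:**
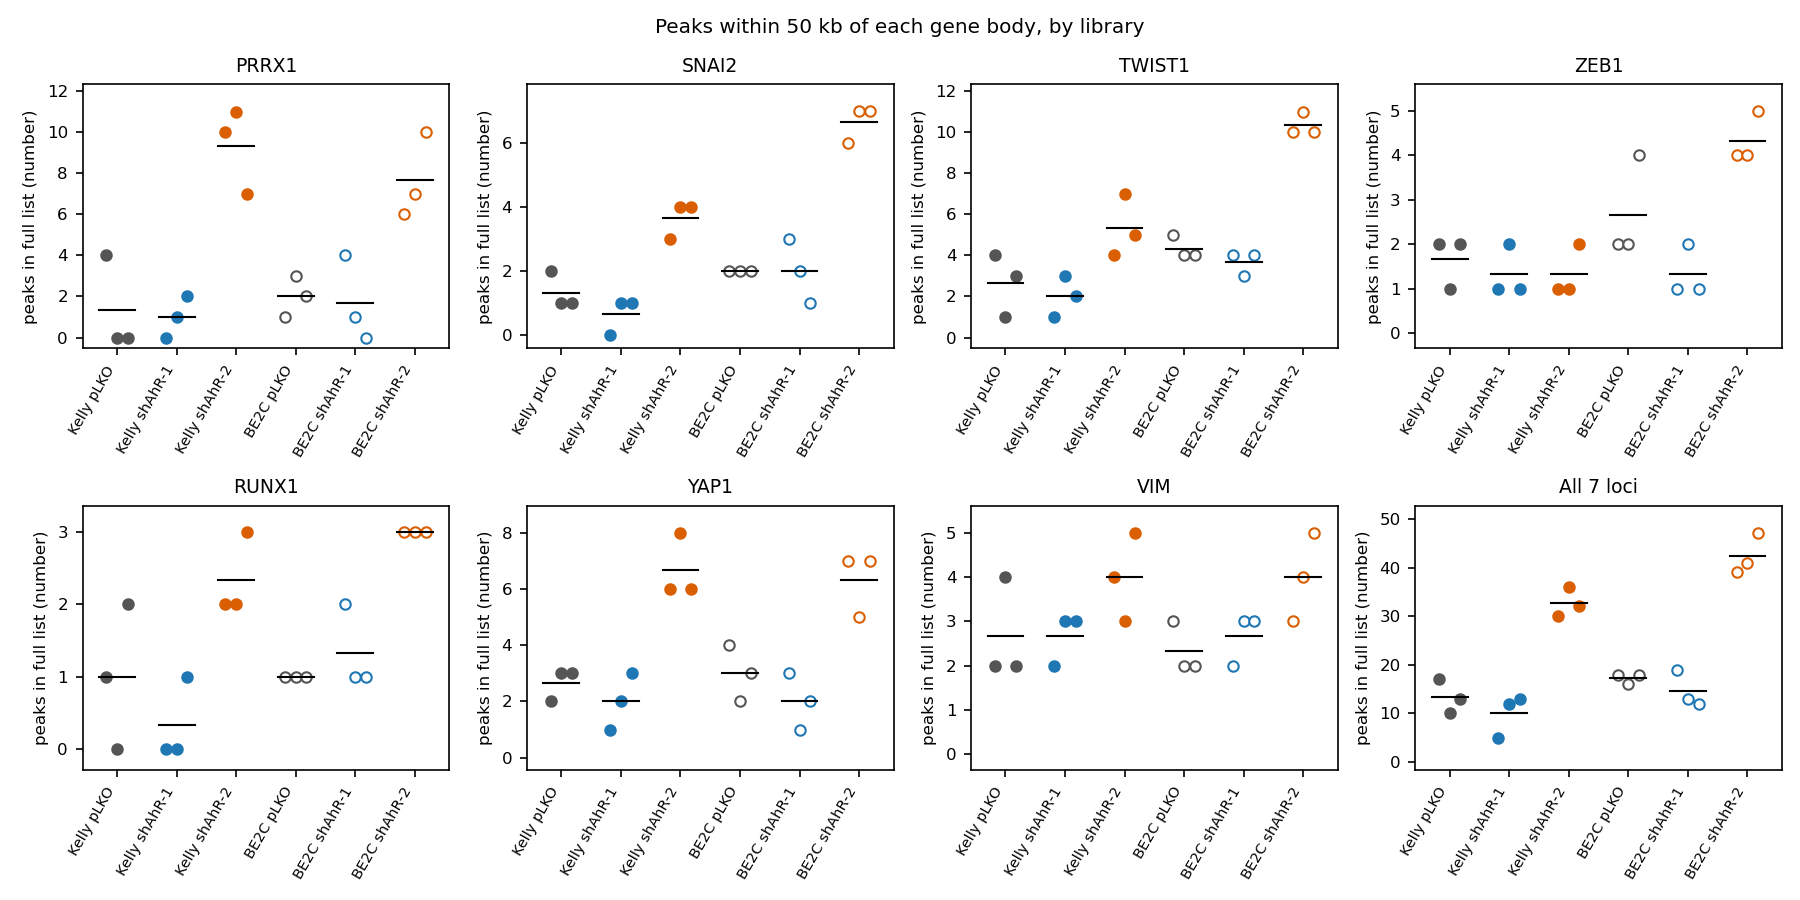
Number of peaks in the full deposited list of each library within 50 kb of each gene and of all 7 genes. Filled points are Kelly and open points BE2C, grey is pLKO, blue shAhR-1 and orange shAhR-2, and black lines are group means of 3 libraries. The shAhR-2 libraries reach 30 to 47 peaks over the 7 loci and the other 12 libraries 5 to 19.

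The 82 regions were mostly found in few libraries. Of them 40 (48.8%) appeared in 1 library, against 37.6% of all regions, and 4 (4.88%) appeared in all 18 libraries, against 4.22%. The median region was found in 2 libraries at the 7 loci and in 3 overall. Peaks in shAhR-2 libraries alone made up 52 regions (63.4%, against 50.6%). Regions with peaks in BE2C alone numbered 36 (43.9%, against 34.0%), and those in Kelly alone 16 (19.5%, against 25.6%). These shares describe the full lists and carry no test.

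**Figure D2:**
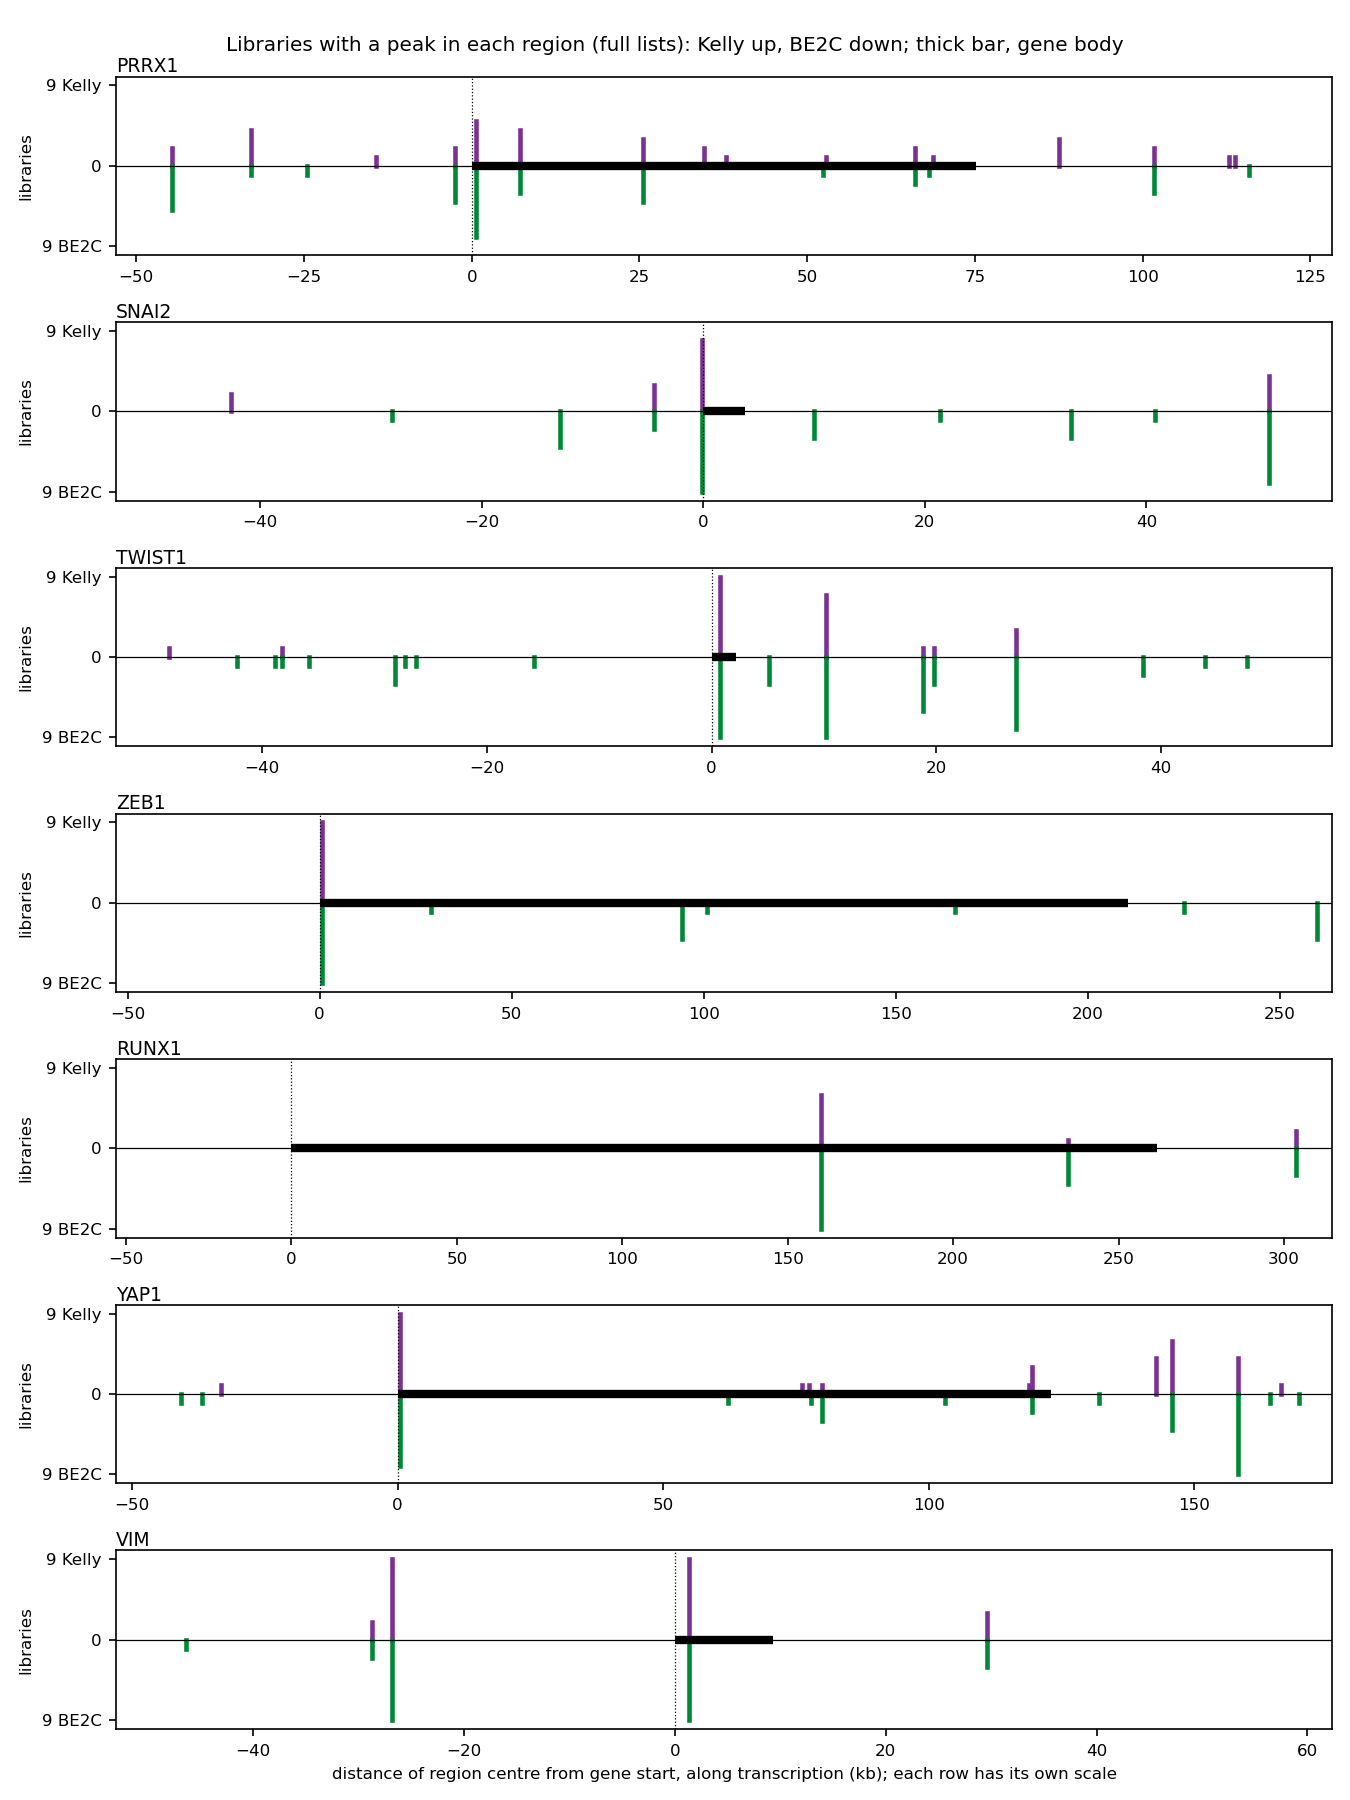
Regions at each locus by the distance of their centre from the gene start along transcription, in kb, with its own scale per row. Bars point up for the number of Kelly libraries with a peak and down for BE2C libraries, 9 at most, and the thick bar is the gene body. Tall bars in both directions stand at the starts of SNAI2, TWIST1, ZEB1, YAP1 and VIM and 26.8 kb upstream of VIM.

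The loci differed in how many regions they held for their length. TWIST1 had 17.6 regions per 100 kb of window, PRRX1 11.4, SNAI2 9.64, YAP1 8.52, VIM 4.57, ZEB1 2.25 and RUNX1 0.83. RUNX1 and ZEB1 are long genes, so most of their windows is gene body. A region covered the annotated start of 5 genes. The exceptions were PRRX1, where the nearest region began 43 bases inside the gene, and RUNX1, whose annotated distal start had none. A start of RUNX1 inside the gene was not placed against the peaks.

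SNAI2 encodes Slug, a zinc-finger repressor of epithelial genes, on chr8:49830239-49833999 (minus strand). Its locus had 10 regions, of which 1 covered the start, 4 lay upstream and 5 downstream. The start region, chr8:49833483-49834792, carried a peak in 17 libraries, all but replicate 1 of Kelly shAhR-1, and ranked among the strongest 9204 peaks in each of the 17. The height of the peak as a fold over background, a value the authors' caller gave each peak, was 12.5, 6.81 and 13.3 in Kelly pLKO, 8.61 and 9.29 in replicates 2 and 3 of Kelly shAhR-1, and 9.38, 9.03 and 9.50 in Kelly shAhR-2. In BE2C it was 12.2, 13.6 and 10.8 with pLKO, 11.7, 8.83 and 9.16 with shAhR-1, and 9.25, 8.90 and 7.57 with shAhR-2. The peak ranked 3126 to 6938 in the Kelly lists and 1489 to 3193 in the BE2C lists, ranges that overlapped through replicate 3 of pLKO in both lines. Those ranks come from lists of different lengths and show no change.

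A downstream SNAI2 region 51.1 kb from the start, chr8:49782485-49783404, was found in 12 libraries. They were 1 Kelly pLKO and 3 Kelly shAhR-2 libraries, and 3, 2 and 3 BE2C libraries with pLKO, shAhR-1 and shAhR-2. No Kelly shAhR-1 library had it. Its fold ran from 5.05 to 7.21 in Kelly (median 5.22, 4 libraries) and from 4.42 to 8.93 in BE2C (median 7.33, 8 libraries). Upstream, a region 4.4 kb from the start, chr8:49838176-49838604, had peaks in 3 Kelly and 2 BE2C shAhR-2 libraries alone. Of the 10 regions 6 were found in BE2C alone, 1 in Kelly alone and 7 in shAhR-2 libraries alone. Over all regions these shares were 34.0%, 25.6% and 50.6%.

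TWIST1, a basic helix-loop-helix factor of neural crest and mesoderm, lies on chr7:19155091-19157295 (minus strand) and had 18 regions in a short window. The start region, chr7:19155549-19157576, was found in all 18 libraries and among the strongest 9204 peaks in 9 Kelly and 7 BE2C libraries. Its fold was 7.74, 5.18 and 6.14 in Kelly pLKO, 4.52, 5.88 and 5.85 in Kelly shAhR-1, and 6.57, 7.33 and 7.45 in Kelly shAhR-2. BE2C values were 7.41, 6.14 and 5.35 with pLKO, 6.40, 5.21 and 5.84 with shAhR-1, and 5.59, 5.27 and 4.84 with shAhR-2. The ranges of the 2 lines overlapped, from 4.52 to 7.74 in Kelly and 4.84 to 7.41 in BE2C.

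The region 10.2 kb from the TWIST1 start, chr7:19145717-19148527, begins 6.6 kb beyond the gene's end. It was found in 16 libraries, all 9 of BE2C and 7 of Kelly, where replicate 2 of pLKO and replicate 1 of shAhR-1 had none. Kelly folds were 4.27 and 4.61 with pLKO, 3.59 and 4.46 with shAhR-1, and 3.91, 3.85 and 3.69 with shAhR-2. BE2C folds were 5.54, 5.70 and 5.15 with pLKO, 4.31, 3.46 and 3.71 with shAhR-1, and 4.02, 3.93 and 3.61 with shAhR-2. The highest point of the peak that gave the fold lay 9145 to 11100 bases from the start, depending on the library. The region thus joins peaks at different positions, and folds of different libraries can come from different peaks. The ranks of these peaks were 15398 to 31023 in the 7 Kelly lists and 11295 to 19709 in the BE2C lists, which overlap and come from lists of different lengths. The region reached the strongest 9204 peaks in no library.

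Farther downstream, 27.1 kb from the TWIST1 start, the region chr7:19129381-19131001 was found in 3 Kelly libraries, all with shAhR-2, and in 8 BE2C libraries. Folds were 5.08, 3.95 and 4.37 in Kelly shAhR-2. In BE2C they were 6.20, 6.68 and 5.83 with pLKO, 6.63 and 4.46 in replicates 1 and 2 of shAhR-1, and 6.89, 6.26 and 5.76 with shAhR-2. No Kelly pLKO or shAhR-1 library carried it, and its ranks in Kelly, 32316 to 43242, lay near or beyond the end of those groups' lists. Of the 18 TWIST1 regions 11 were found in BE2C alone and 1 in Kelly alone, against 34.0% and 25.6% of all regions. The neighbouring coding genes in RefSeq are HDAC9 and FERD3L.

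ZEB1, a zinc-finger homeobox repressor of epithelial genes, spans chr10:31608101-31818742 (plus strand) and had 7 regions. The start region, chr10:31607274-31610075, was found in all 18 libraries. Kelly folds were 6.42, 4.18 and 5.77 with pLKO, 4.69, 6.34 and 5.27 with shAhR-1, and 4.70, 4.53 and 4.64 with shAhR-2. BE2C folds were 5.13, 5.99 and 6.73 with pLKO, 5.10, 4.08 and 5.48 with shAhR-1, and 5.47, 5.99 and 4.31 with shAhR-2. The values of the lines and of the constructs overlapped, and the peak was among the strongest 9204 in 1 library alone, the short list of Kelly shAhR-1 replicate 1, which ends at that length.

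All 6 other ZEB1 regions were found in BE2C alone, against 34.0% of all regions, and 4 of them in 1 library each. Those 4 were found in shAhR-2 libraries alone, as were 50.6% of all regions. A region in the gene body 94.5 kb from the start, chr10:31702215-31703023, had peaks in 1 shAhR-1 library and all 3 shAhR-2 libraries of BE2C. A region 259.8 kb from the start, chr10:31867589-31868214, had peaks in 1 pLKO and all 3 shAhR-2 libraries of BE2C. Their folds ran from 3.19 to 4.42 and from 2.69 to 4.63. The antisense gene ZEB1-AS1 overlaps ZEB1 in RefSeq, and peak lists cannot assign a shared start region to either gene.

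PRRX1, on chr1:170633313-170708541 (plus strand), had 20 regions, the most of any of the 7 loci, of which 10 lay in the gene body, 5 upstream and 5 downstream. No region overlapped its annotated start. The nearest, chr1:170633356-170634542, begins 43 bases inside the gene and was found in 13 libraries. Kelly folds were 3.95 in 1 pLKO library, 2.95 in 1 shAhR-1 library, and 4.24, 4.45 and 4.80 with shAhR-2. BE2C folds were 4.59, 3.93 and 3.74 with pLKO, 4.62 and 4.43 in 2 shAhR-1 libraries, and 4.42, 4.14 and 3.59 with shAhR-2. The peak ranked 16023 to 37626 within its lists and was never among the strongest 9204. The start peaks of SNAI2 and TWIST1 were there in most libraries, and that of YAP1 in 3 Kelly libraries and 1 BE2C library. Those of ZEB1 and VIM were there in the short list of Kelly shAhR-1 replicate 1 alone.

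The PRRX1 region 25.5 kb from the start, chr1:170658430-170659265, was found in 7 libraries with folds of 3.93 to 6.36 in 3 Kelly libraries and 5.57 to 8.48 in 4 BE2C libraries. Of the 20 regions 10 were found in 1 library and 12 in shAhR-2 libraries alone, against 37.6% and 50.6% of all regions. Peaks per library in Kelly were 4, 0 and 0 with pLKO, 0, 1 and 2 with shAhR-1, and 10, 11 and 7 with shAhR-2. In BE2C they were 1, 3 and 2 with pLKO, 4, 1 and 0 with shAhR-1, and 6, 7 and 10 with shAhR-2. The shAhR-2 libraries lay above all others in both lines at this locus, as the lengths of their lists did, and the part of list length in the difference at PRRX1 alone was not tested.

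RUNX1 spans chr21:36160098-36421595 (minus strand) and had 3 regions, the fewest. RUNX1 is known to be transcribed from a distal promoter and from a proximal one inside the gene. The proximal promoter was not placed against the peaks, so a region described here as gene body may cover it. The region in most libraries lay in the gene body 160.0 kb from the distal start, chr21:36260540-36262580, and was found in 15 libraries, all 9 of BE2C and 6 of Kelly. Kelly folds were 9.41 and 3.74 in replicates 1 and 3 of pLKO, 7.56 in replicate 3 of shAhR-1, and 8.28, 7.02 and 9.33 with shAhR-2. The highest point of the 3.74 peak lay 159120 bases from the start, against 160414 to 160533 in every other library with a peak. It fell in a separate region when Kelly lists alone were merged, so the 6 Kelly libraries do not all share 1 site. BE2C folds were 8.61, 12.4 and 11.7 with pLKO, 10.4, 5.99 and 7.44 with shAhR-1, and 8.87, 8.12 and 7.59 with shAhR-2. It was among the strongest 9204 peaks of 2 Kelly and 8 BE2C libraries. A second gene-body region 234.6 kb from the start, chr21:36186676-36187240, had peaks in 1 Kelly pLKO library, 1 BE2C shAhR-1 library and all 3 BE2C shAhR-2 libraries.

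YAP1, on chr11:101981192-102104154 (plus strand), had 19 regions, of which 13 were found in 1 library, against 37.6% of all regions. The start region, chr11:101980642-101982460, was found in 17 libraries, all but replicate 2 of BE2C shAhR-1. Kelly folds were 4.49, 3.59 and 6.50 with pLKO, 4.05, 7.12 and 3.88 with shAhR-1, and 7.17, 7.34 and 7.69 with shAhR-2. BE2C folds were 4.23, 4.42 and 6.65 with pLKO, 7.51 and 4.37 in replicates 1 and 3 of shAhR-1, and 6.82, 8.54 and 6.70 with shAhR-2. It was among the strongest 9204 peaks in 3 Kelly libraries, the short list included, and 1 BE2C library. YAP1-DT, a divergent transcript, overlaps YAP1 in RefSeq.

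A region 158.2 kb from the YAP1 start and 34.7 kb beyond its end, chr11:102138860-102139993, was found in all 9 BE2C libraries and 4 Kelly libraries. BE2C folds were 10.7, 10.5 and 10.0 with pLKO, 11.0, 6.84 and 5.67 with shAhR-1, and 10.2, 8.71 and 10.9 with shAhR-2. In Kelly the peak was present in replicate 2 of pLKO at 3.77, in no shAhR-1 library, and in shAhR-2 at 4.68, 3.49 and 3.83. It ranked 3120 to 12608 in the 9 BE2C lists and 18727 to 48226 in the 4 Kelly lists, which differ in length. The next coding gene in RefSeq on that side is BIRC3, and which gene the region serves was not tested.

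Closer to the gene, 145.9 kb from the YAP1 start, the region chr11:102126769-102127469 was present in 6 Kelly and 4 BE2C libraries. Kelly pLKO folds were 6.11, 3.61 and 6.65, no Kelly shAhR-1 library had the peak, and Kelly shAhR-2 folds were 4.86, 3.96 and 4.88. BE2C had 1 peak with pLKO at 2.84, 1 with shAhR-1 at 4.54 and 2 with shAhR-2 at 3.12 and 4.22. A region 142.9 kb from the start, chr11:102123735-102124396, chosen after its values were seen, was found in 4 Kelly libraries, 1 with pLKO and 3 with shAhR-2, and in no BE2C library.

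VIM, on chr10:17270258-17279592 (plus strand), had 5 regions, and both of its leading ones were found in all 18 libraries. The start region, chr10:17270230-17272862, had folds of 5.83, 4.70 and 6.87 in Kelly pLKO, 5.71, 5.95 and 5.14 in Kelly shAhR-1, and 5.02, 5.17 and 5.31 in Kelly shAhR-2. BE2C values were 5.65, 5.36 and 4.61 with pLKO, 6.33, 4.48 and 4.57 with shAhR-1, and 4.61, 4.59 and 4.45 with shAhR-2. The highest point of the peak that gave the fold lay 420 to 2295 bases from the start, so these folds can come from different peaks. The start peak was among the strongest 9204 in that same short Kelly list and in no other library.

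The upstream VIM region 26.8 kb from the start, chr10:17242957-17243946, held strong peaks in every library. Kelly folds were 12.8, 9.48 and 14.2 with pLKO, 6.28, 10.2 and 11.2 with shAhR-1, and 9.81, 8.98 and 10.7 with shAhR-2. BE2C folds were 14.1, 13.9 and 14.0 with pLKO, 15.6, 10.5 and 11.2 with shAhR-1, and 10.1, 10.2 and 8.77 with shAhR-2. It ranked 1186 to 3585 in Kelly (median 2273) and 773 to 2706 in BE2C (median 1487), and it was among the strongest 9204 peaks in all 18 libraries. No other of the 82 regions was among the strongest 9204 in all 18 libraries. The neighbouring coding genes are TRDMT1 and ST8SIA6, and which gene the region serves was not tested.

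One further VIM region, 29.6 kb from the start and 19.9 kb beyond the gene's end, chr10:17299484-17300164, was found in all 6 shAhR-2 libraries and in no other. Kelly folds were 8.69, 4.90 and 5.06, and the BE2C libraries had 6.83, 7.04 and 5.16. Its ranks were 18061 to 39367, and all but 1 of the 6 lay beyond the 19984 peaks of the second-shortest list, a Kelly pLKO list. The pLKO lists, all without this peak, held 19984 to 34848 peaks in Kelly and 34343 to 44397 in BE2C. The part of list length at this region was not tested.

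**Figure D3:**
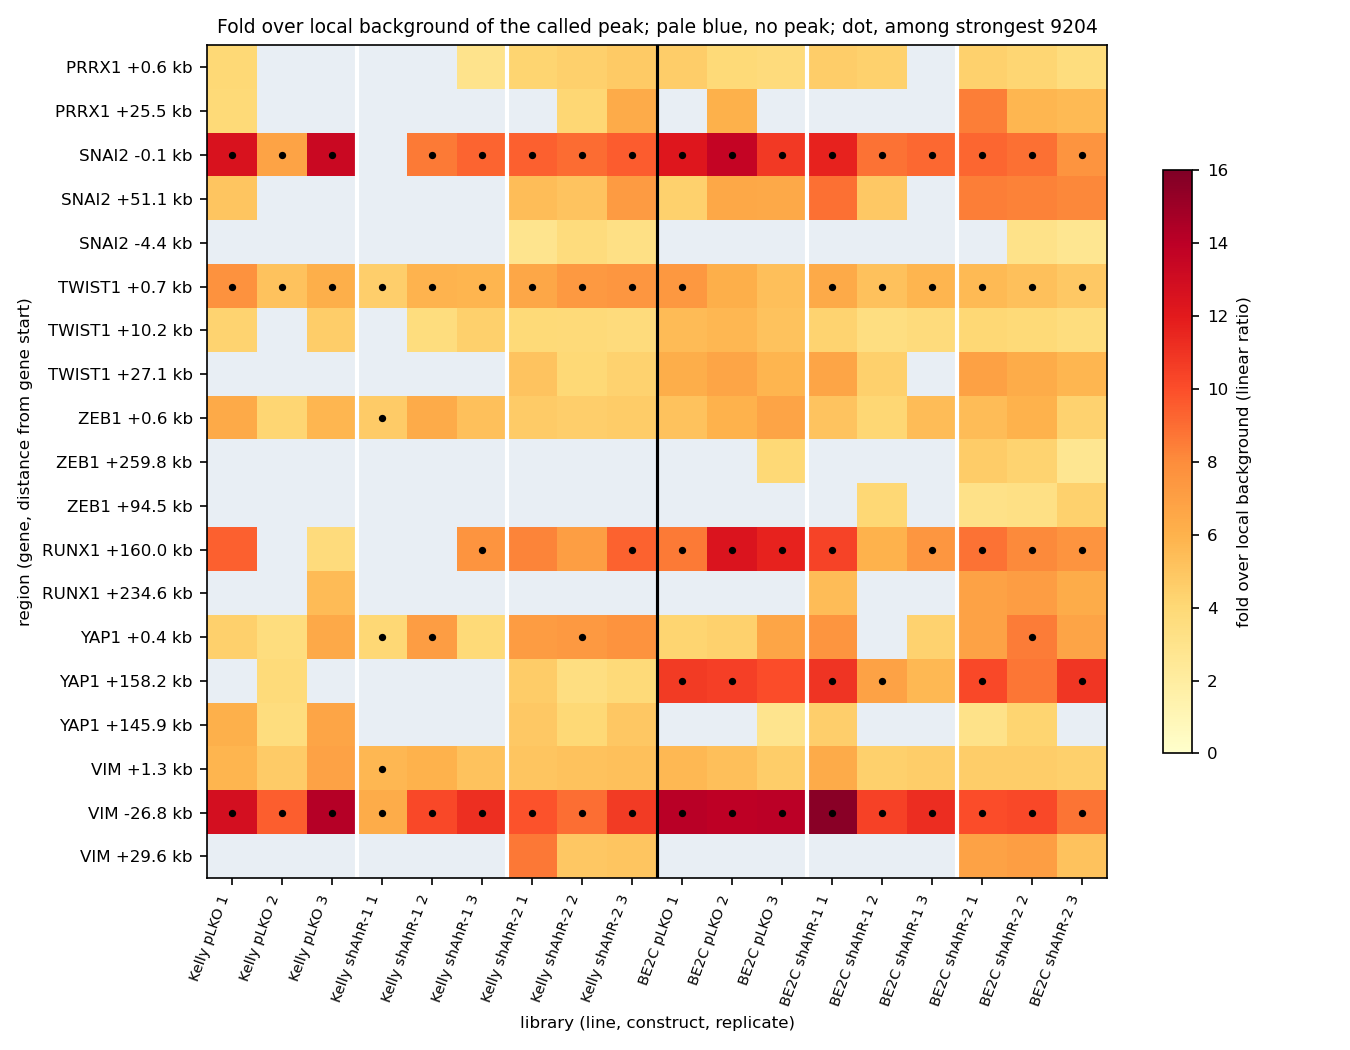
Fold of the authors' peak, from 0 to 16, at 19 regions of the 7 loci in the 18 libraries. Pale blue marks a library without a peak and a dot marks a peak among the strongest 9204 of its list. The row 26.8 kb upstream of VIM carries a dot in all 18 libraries, the row 158.2 kb from YAP1 carries 6 dots, all in BE2C, and the row 29.6 kb from VIM is filled in the 6 shAhR-2 libraries alone.

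The lines were compared by the presence of a peak among the strongest 9204 of each list, with a two-sided Fisher's exact test per region and Benjamini-Hochberg adjustment over all 19921 regions. At an adjusted p under 0.05, 330 regions (1.66%) were found more often in Kelly and 590 (2.96%) more often in BE2C. Of the 8 regions at the 7 loci that entered this test, 0 were called. The nearest to the threshold were the YAP1 region at 158.2 kb, in 0 Kelly and 6 BE2C libraries (unadjusted exact p = 0.00905, adjusted p = 0.121), and the RUNX1 region at 160.0 kb, in 2 and 8 libraries (unadjusted exact p = 0.0152, adjusted p = 0.176). These were the 2 of the 8 with an unadjusted p under 0.05. The SNAI2 start region was in 8 and 9 libraries, the TWIST1 start region in 9 and 7, and the VIM region at 26.8 kb in 9 and 9.

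Without replicate 1 of Kelly shAhR-1 the lists could be compared at 19984 peaks, and 41632 regions were tested in 17 libraries. Regions called more often in Kelly then made up 2.69% and those called more often in BE2C 4.22%. At the 7 loci 16 regions entered the test and 2 were called, both more often in BE2C. The TWIST1 region at 10.2 kb and the YAP1 region at 158.2 kb were each in 1 of 8 Kelly and 9 of 9 BE2C libraries (Fisher's exact test, p = 0.000411, adjusted p = 0.00986). Fisher's test takes all libraries of a line as separate samples across its constructs. Label exchange within a construct was run at 9204 peaks only, where the YAP1 region was not called (exact exchange test, adjusted p = 0.198). The downstream SNAI2 region at 51.1 kb was in 0 and 6 libraries (exact test, adjusted p = 0.0911), the RUNX1 region at 160.0 kb in 5 and 9 (adjusted p = 0.368), and the TWIST1 region at 27.1 kb in 0 and 4 (adjusted p = 0.368). Over the full lists, where unequal list length enters, 0.146% and 1.24% of regions were called more often in Kelly and in BE2C, and 0 of the 82 at the 7 loci. The TWIST1 call was made at 19984 peaks alone, a length the 1 short list does not reach. At 9204 peaks the YAP1 region at 158.2 kb passed when replicate 3 of BE2C pLKO, replicate 3 of BE2C shAhR-1 or replicate 2 of BE2C shAhR-2 was left out (exact test, adjusted p = 0.0449, 0.0416 and 0.0437). The RUNX1 region at 160.0 kb passed when replicate 2 of BE2C shAhR-1 was left out (exact test, adjusted p = 0.0435). Each was 1 of 8 regions at the 7 loci. Over all regions, 3.26%, 3.52%, 3.30% and 3.33% were called more often in BE2C in these settings, in that order. Every library left out lacked the peak among its strongest 9204. Its removal by itself raised the share of BE2C libraries with the peak.

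**Figure D4:**
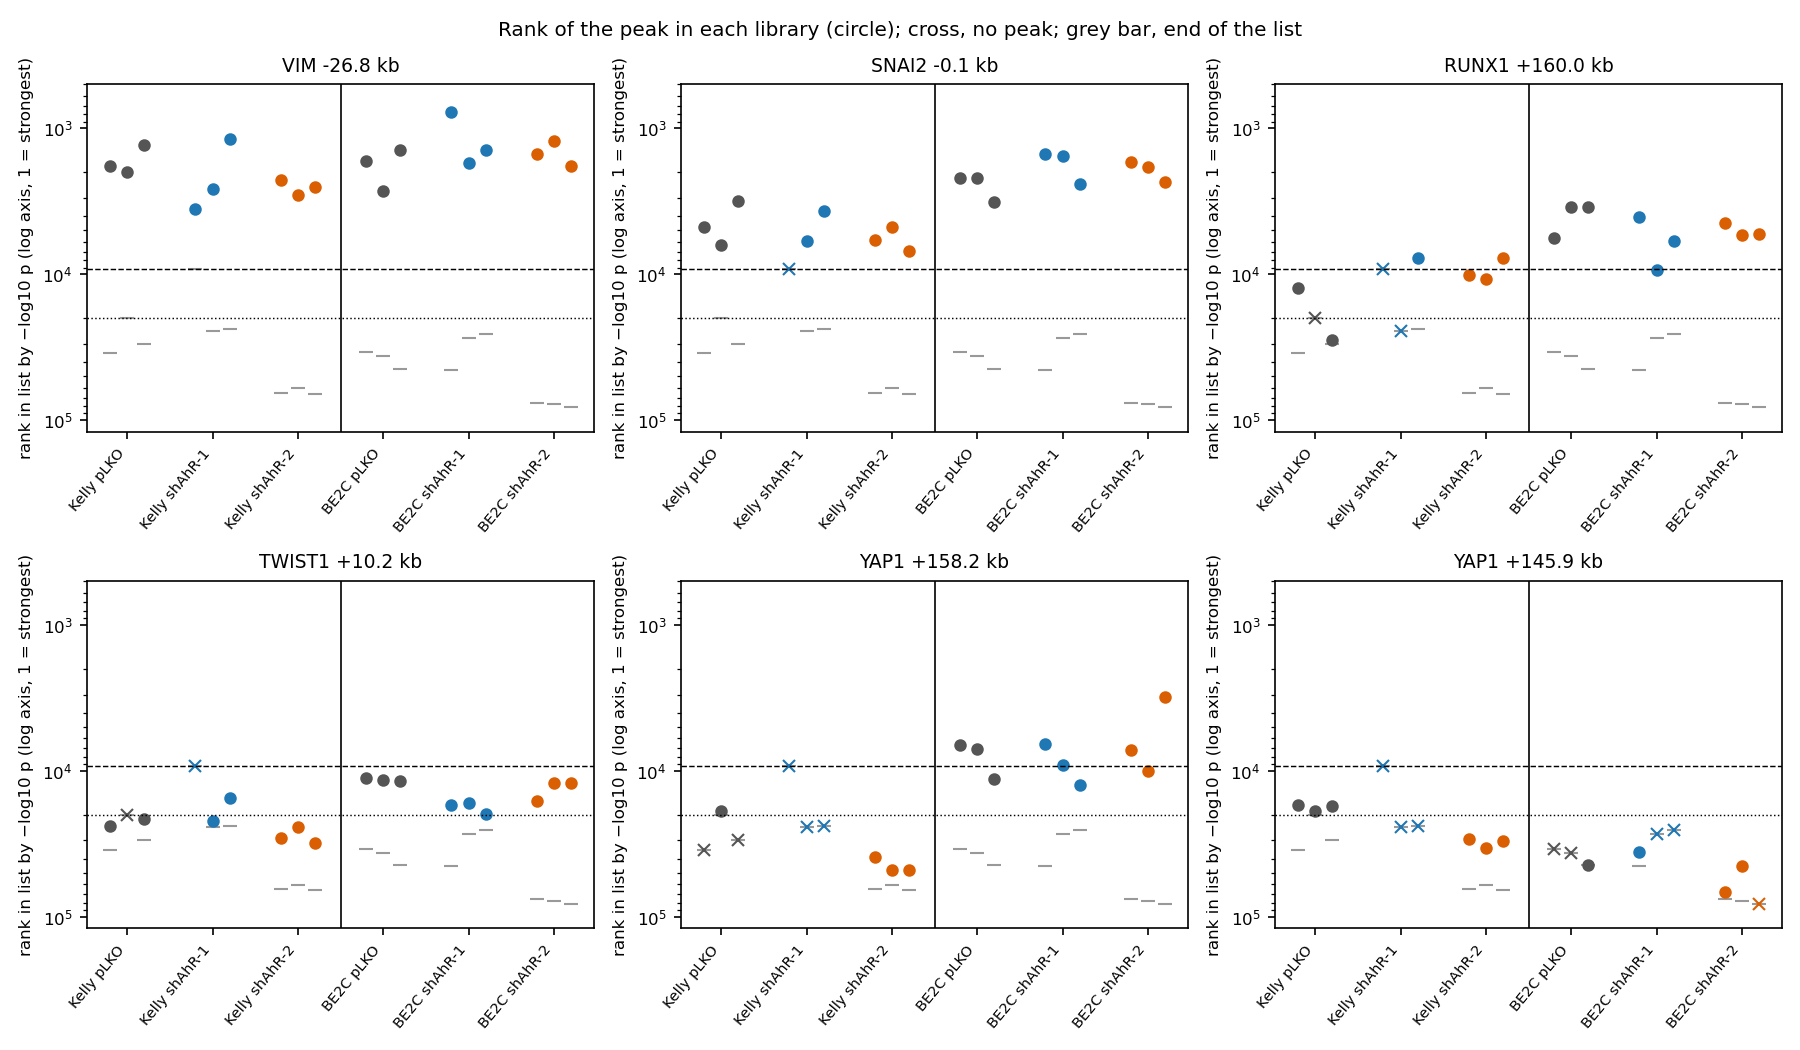
Rank of the peak in its own list by −log10 p, on a log axis with the strongest at the top, for 6 regions in the 18 libraries. Grey is pLKO, blue shAhR-1 and orange shAhR-2. A cross marks a library without the peak, short grey bars mark the end of each list, the dashed line is 9204 and the dotted line 19984. The YAP1 region at 158.2 kb ranks 3120 to 12608 in BE2C and 18727 to 48226 in the 4 Kelly libraries that have it.

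Hairpins were compared with pLKO within a line by asking which regions had a peak in all 3 libraries of 1 group and in none of the 3 of the other, a rule without a p-value because 3 against 3 libraries cannot pass a correction over regions. The 2 hairpins of a line share the same 3 pLKO libraries, so their comparisons are not independent. In Kelly with shAhR-1, 0 of 7 regions at the 7 loci were gained and 0 lost, against 1.45% gained and 1.76% lost of all regions. In Kelly with shAhR-2, 0 of 5 were gained and 0 lost, against 3.49% and 3.56%. In BE2C with shAhR-1, 0 of 15 were gained and 0 lost, against 1.47% and 1.81%. In BE2C with shAhR-2, 0 of 14 were gained and 0 lost, against 4.14% and 3.70%. With 5 to 15 regions at such background shares, counts of 0 or 1 lie near the background, and no difference of these loci from all regions is read from them.

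The full lists gave calls that lean in the direction of list length. In Kelly with shAhR-1, whose lists were the shorter, 0 of 22 regions were gained and 1 was lost (4.55%), against 0.168% gained and 2.00% lost of all regions. The lost region was the YAP1 region at 145.9 kb, present in all 3 pLKO libraries. In Kelly with shAhR-2, whose lists were the longer, 4 of 46 were gained (8.70%) and 0 lost, against 12.4% and 0.224%. They were the TWIST1 region at 27.1 kb, the SNAI2 region 4.4 kb upstream, the VIM region at 29.6 kb and a YAP1 gene-body region at 119.4 kb. In BE2C with shAhR-1, 0 of 25 were gained and 0 lost, against 0.269% and 1.43%.

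In BE2C with shAhR-2, 13 of 67 regions were gained (19.4%) and 0 lost, against 13.9% and 0.165% of all regions. They were spread over all 7 loci. TWIST1 had 3, at 5.1 kb and 19.8 kb downstream and 28.2 kb upstream of its start, and SNAI2 had 3, at 10.0 kb and 33.2 kb downstream and 12.9 kb upstream. PRRX1 had regions 2.5 kb upstream and 101.7 kb downstream of its start, and RUNX1 had the regions at 234.6 kb and 303.5 kb. The others were the ZEB1 region at 94.5 kb, the YAP1 region at 79.9 kb and the VIM region at 29.6 kb. The VIM region at 29.6 kb was the 1 region at the 7 loci gained with shAhR-2 in both lines. The share of all regions gained in both lines was not counted, so nothing is read from this. None of these 13 passed the rule at 25660 peaks. That cut also drops the weaker shAhR-2 peaks, so it cannot tell what part list length had in the 13, which was not tested.

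Without replicate 1 of Kelly shAhR-1, at 19984 peaks and with 2 shAhR-1 libraries, the YAP1 region at 145.9 kb was lost with shAhR-1, 1 of 11 regions (9.09%), against 3.76% gained and 2.36% lost of all regions. With shAhR-2 at that length 2 of 13 were lost (15.4%), the ZEB1 start region and the YAP1 region at 145.9 kb, and 0 gained, against 4.48% gained and 3.76% lost. The ZEB1 start peak was still present in all 3 Kelly shAhR-2 lists at their full length, with folds of 4.70, 4.53 and 4.64, as was the YAP1 peak at 4.86, 3.96 and 4.88. With pLKO the folds were 6.42, 4.18 and 5.77 at the ZEB1 start and 6.11, 3.61 and 6.65 at the YAP1 region, and the ranges of the 2 groups overlapped at both. The part of list length in these losses was not tested.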

How the data were processed

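Open chromatin was measured by ATAC-seq in 18 libraries of 50K cells each, 3 per group. The submitters' processing notes name the hg19 build, the aligner BWA 0.7.17 and the peak caller MACS2 2.1.0, together with Trimmomatic 0.33, deepTools 3.1.3 and CASAVA 1.8.2. How duplicates were handled and whether read ends were shifted is not given in the sources used here, and both could change which peaks pass. The authors deposited 1 peak list per library. Each peak's integer score was deposited by the authors and not used further. Each peak's fold over local background is a linear ratio set by the authors' caller. Where a library had several peaks in a region, the strongest by −log10 p gave the fold and rank. Significance was deposited by the authors as −log10 of the p-value and of the q-value, and the highest q was 0.05. These values rank and describe peaks within a list.

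Other chromosomes than 1 to 22 and X, 0.197% to 0.83% of a list, were left out, and peaks were merged at 1 bp overlap. Lists shared at most 0.25% identical peaks, so no library was counted as a duplicate. Groups came from the cell line and genotype labels. Tests used Python 3.11.15, scipy 1.17.1 and pandas 2.3.3. The Fisher's exact test over regions was tried on simulated data, while the hairpin rule, the label exchange and the replicate block were not. Alternatives were full lists, −log10 q of at least 5, a peak covering at least 50% of a region, a peak in at least 2 of 3 libraries, a 10 kb window, label exchange within a construct, a replicate block and each library left out. Named were all 7 genes and, per locus, the start region, up to 4 called regions and the 2 others in most libraries. The genes and lists were chosen with earlier results of these data known. Gene body coordinates were those of the definition of the loci. No hg19 annotation was used, so a test per gene locus, other pathway genes, cell type markers and genes of like pattern were not analysed here.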

Additional observations from a re-analysis of the deposited data

How the results depend on the processing

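Over all regions, 920 differed between the lines. That count was 2089 over full lists, 1539 at a −log10 q of at least 5, 418 with at least 50% of a region covered, 567 when labels were exchanged within a construct, and 986 to 2875 with each library left out, where 2875 came without replicate 1 of Kelly shAhR-1. With a replicate block, 0 regions were called, and the smallest p was 0.00391 (exact sign test, adjusted p = 0.274). Libraries of the same number did not deviate together (r from −0.0658 to 0.0617 over 45 pairs), so the numbers were not treated as pairs. This does not exclude that libraries of the same number were prepared together. At the 7 loci, 0 regions were called in the main comparison, 1 of 42 at a −log10 q of at least 5 (YAP1 at 158.2 kb, more often in BE2C as were 1.62% of all regions, exact test adjusted p = 0.023) and 0 to 2 with each library left out. Beside the 2 calls without replicate 1 of Kelly shAhR-1, the YAP1 region at 158.2 kb was called without replicate 3 of BE2C pLKO, replicate 3 of BE2C shAhR-1 or replicate 2 of BE2C shAhR-2, and the RUNX1 region at 160.0 kb without replicate 2 of BE2C shAhR-1. Each of these BE2C settings called 1 of 8 regions, against 3.26% to 3.52% of all regions called more often in BE2C. The BE2C library left out lacked the peak among its strongest 9204 each time. For Kelly shAhR-1 the count of gained or lost regions was 1 over full lists, 1 of 7 (YAP1 start, gained, against 5.16% of all regions) under the rule of 2 of 3 libraries and 0 to 1 with a library left out. The 1 came without replicate 1 of shAhR-1 (YAP1 at 145.9 kb, lost) or replicate 3 of shAhR-1 (YAP1 start, gained, 1 of 6 against 2.48%). For Kelly shAhR-2 it was 4 over full lists, 2 of 29 at a −log10 q of at least 5 (gained, against 15.5% of all regions) and 0 to 2 with a library left out, the 2 without replicate 1 of Kelly shAhR-1. For BE2C shAhR-1 it was 0 under every alternative run. For BE2C shAhR-2 it was 13 over full lists, 8 of 37 at a −log10 q of at least 5 (gained, against 19.4% of all regions), 3 of 14 with at least 50% cover (SNAI2 at 51.1 kb, YAP1 start and YAP1 at 158.2 kb, gained, against 10.4%) and 0 to 1 with a library left out (YAP1 start, gained without replicate 3 of BE2C pLKO, 1 of 14 against 5.97%). Mean peaks at the 7 loci were 3.67 in Kelly and 4.44 in BE2C at 9204 peaks, 18.7 and 24.8 over full lists, 2.67 and 2.78 within 10 kb, and 3.63 to 7.75 and 4.38 to 9.44 with a library left out, the highest without replicate 1 of Kelly shAhR-1. The permutation test of these means over all genes was not run. Depth was not known, and a peak missing from a short list may be present below its end.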
